A study of Mus musculus with 18 samples.

Results

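Day-4 primordial germ cell-like cells (PGCLCs), the early germ cells made in culture from mouse embryonic stem cells (ESCs), were compared with the ESCs they derive from. The comparison holds 4 of the 18 libraries of the series, 2 titled d4 mPGCLC and 2 titled mESC, chosen by title. Both cell types came from the same C57BL/6 background carrying a Blimp1-mVenus and a Stella-ECFP reporter. ESCs were grown attached in N2B27 medium with LIF at 1000 U/ml and with PD0325901 and CHIR99021, inhibitors of MEK and GSK3 on a laminin-coated dish, and are labelled unsorted. For PGCLCs, ESCs were first turned into epiblast-like cells (EpiLCs) over 2 days with activin A at 20 ng/ml and FGF2 at 12 ng/ml. These were then grown floating for 4 days in another medium with BMP4 at 500 ng/ml, LIF at 1000 U/ml, stem cell factor at 100 ng/ml and EGF at 50 ng/ml, and mVenus-positive cells were sorted. Cell state, medium, attachment, time and sorting thus change together, and their parts in a difference cannot be told apart. Nothing says that the 2 ESC or the 2 day-4 libraries came from separate cultures, so the spread within each group may be technical. The p-values and standard errors rest on the spread within groups over all 18 libraries, cultured cells included, and not on these 4 alone. EpiLCs, and day-4 PGCLCs cultured further on m220-5 feeder cells with stem cell factor, forskolin and rolipram (d4c7 FR10), 2 libraries each, are given beside them as levels.

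Mouse ESCs kept with MEK and GSK3 inhibitors hold the naive state of the preimplantation epiblast, run by Pou5f1, Sox2 and Nanog together with naive factors such as Klf4, Esrrb and Tfcp2l1. On the way to the postimplantation epiblast the naive factors go down, and BMP then induces germ cells through Prdm1, Prdm14 and Tfap2c. Early germ cells are known to re-express part of the pluripotency network, to lower their de novo DNA methylation machinery and to keep meiotic genes silent.

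Expression was measured by SC3-seq, which amplifies cDNA and sequences the 3' ends of transcripts, here starting at 1 ng of RNA. Values are RPM, the read count of a gene scaled to the library's total by the authors, with no correction for length, so levels are compared within a gene. The inferred depth was 7547917 and 5405557 reads in ESCs and 2129326 and 5178709 in day-4 PGCLCs, and 3 reads equalled 0.397 to 1.41 RPM. The 2 ESC libraries correlated with r = 0.981 over the tested genes, the 2 day-4 libraries with 0.977, and libraries of different groups with 0.775 to 0.802. These correlations are across genes, which are not independent replicates. Ribosomal protein genes took 29.0% and 29.9% of RPM in ESCs and 23.3% and 22.4% in day-4 PGCLCs, and RPM are shares of a total.

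A total of 3299 of 9561 tested genes differed between day-4 PGCLCs and ESCs in limma (adjusted p under 0.05), or 34.5%. Of these, 2328 were higher in day-4 PGCLCs (24.3% of tested genes) and 971 lower (10.2%). The 95% interval of the difference lay inside 2-fold for 1940 genes (20.3%), and only those are described as having like levels. The median tested gene was higher by 0.34 on the log2(RPM + 1) scale, on which all differences are given and which understates changes of low genes. After median-ratio scaling, which sets that median to 0, 1380 genes were higher and 1504 lower. The share of calls that were higher was thus 70.6% by RPM and 47.9% after scaling. Of the 3299 genes, 2351 were also called in the same direction after scaling, and none in the opposite direction. Without ESC replicate 1 or 2 the count of calls was 2160 or 1990, and without day-4 replicate 1 it was 2008. Because RNA was taken in bulk, fewer cells of a kind and less RNA per cell cannot be told apart.

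**Figure D1:**
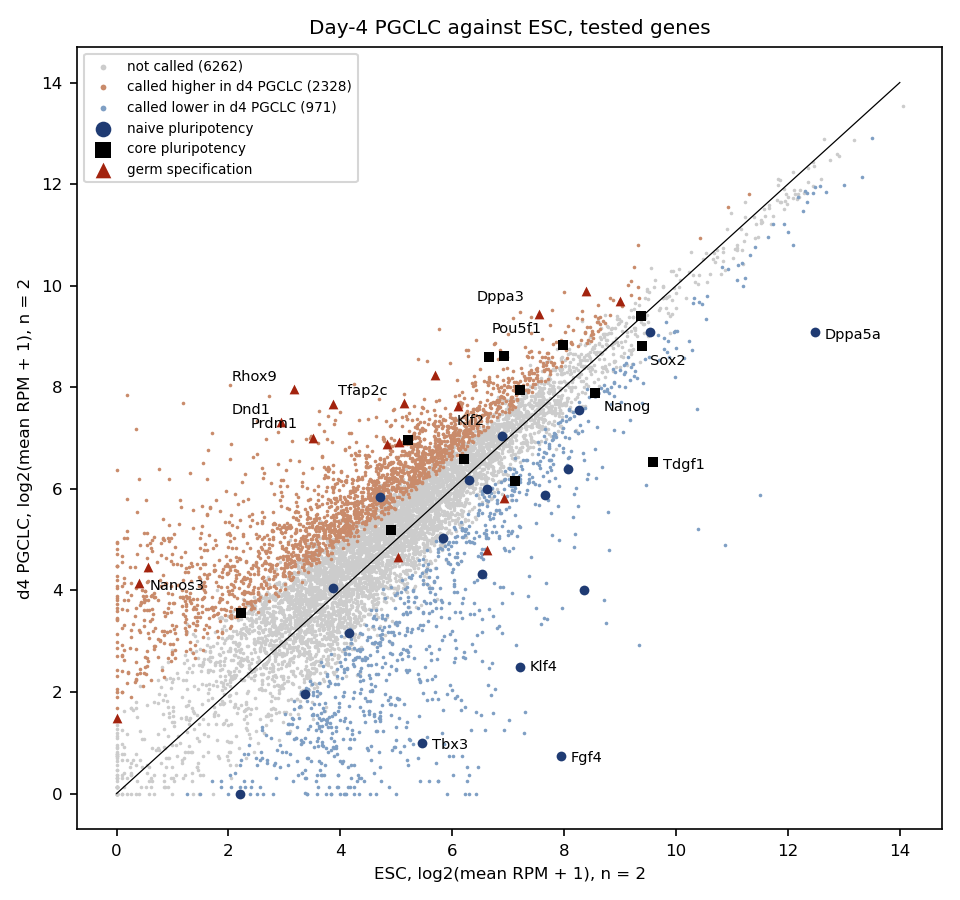
Each point is a gene, with the log2 of its mean RPM + 1 in the 2 ESC libraries on the x axis and in the 2 day-4 PGCLC libraries on the y axis; small points are the 9561 tested genes and large symbols the members of 3 lists, tested or not. Germ specification genes (triangles) lie mostly above the line of equal levels, while naive genes (circles) run from the line at Klf2 down to Klf4, Tbx3 and Fgf4.

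The core pluripotency genes, shared by naive and later pluripotent cells and by germ cells, were mostly present in both cell types, with Pou5f1 higher in day-4 PGCLCs and Sox2 and Nanog not past the test. Pou5f1 (chromosome 17, 35506032 to 35510777, GRCm38.p6), the POU factor of pluripotent and germ cells, was at 247 and 255 RPM in ESCs and 412 and 493 RPM in day-4 PGCLCs. It rose by 0.84 ± 0.20 (log2 ± SE, limma adjusted p = 0.00334), a 1.8-fold ratio of means. Sall4, a zinc finger factor of both lineages, went from 111 and 129.9 to 426 and 357 RPM, and Utf1, a chromatin-bound pluripotency factor, from 106 and 94.2 to 428 and 348 RPM. Both rose, by 1.69 ± 0.29 and 1.94 ± 0.20 (adjusted p = 2.59e-04 and 2.40e-06). Sox2 stood at 641 and 702 RPM in ESCs and 395 and 496 RPM in day-4 PGCLCs, without overlap of the groups. The difference of −0.60 ± 0.24 did not pass the test (adjusted p = 0.0659), and its 95% interval ran from −1.11 to −0.09. Nanog was at 397 and 355 RPM in ESCs and 229.6 and 244 RPM in day-4 PGCLCs, a difference of −0.66 ± 0.49 with an interval of −1.69 to 0.36 (adjusted p = 0.311). EpiLCs held 68.4 and 77 RPM of Sox2 and 43.8 and 24.8 RPM of Nanog, below every library of both other groups. Tdgf1, the NODAL co-receptor, fell from 785 and 749 to 65.3 and 116 RPM (−3.12 ± 0.51, adjusted p = 1.96e-04). Dppa4, a chromatin protein, also fell (−0.97 ± 0.23). The zinc finger gene Zfp281 (−0.01 to 0.79) and the corepressor gene Trim28 (−0.36 to 0.42) had intervals inside 2-fold. L1td1 and Dppa2 did not pass the test, and Lin28a was too low to test. In all, 4 of 12 tested members rose and 2 fell, where 24.3% and 10.2% of all tested genes did. The median difference of the list was 0.34, the same to this precision as that of all tested genes. Pou5f1 lost its call after median-ratio scaling (adjusted p = 0.135).

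The naive genes ranged from like levels, for Klf2 and Klf5, to a few RPM in day-4 PGCLCs. Of 18 tested members, 8 fell and 1 rose, where 10.2% and 24.3% of all tested genes did. The list's median was −0.90. After median-ratio scaling 12 fell, at an unadjusted p under 0.05 also 12, and by voom on inferred reads 11. With the spread taken from the 4 libraries alone 14 fell, and from the 6 uncultured libraries 12. Klf2, a Krüppel-like factor of the naive state, was at 119 and 117 RPM in ESCs and 149 and 113 RPM in day-4 PGCLCs, with overlapping groups and an interval of −0.40 to 0.67. The related Klf5 stood at 80.7 and 75.5 RPM in ESCs and 73.3 and 68.9 RPM in day-4 PGCLCs, and its interval of −0.83 to 0.56 also lay inside 2-fold. In EpiLCs Klf2 was at 0.571 and 0.387 RPM and Klf5 at 6.86 and 3.48 RPM. Esrrb, an orphan nuclear receptor, was at 305 and 310.4 RPM in ESCs and 196 and 177 RPM in day-4 PGCLCs, and EpiLCs had 5.52 and 4.26 RPM. Its difference was −0.72 ± 0.30 (adjusted p = 0.0747). Tdh, the threonine-degrading enzyme of naive cells, was at 772 and 702 RPM in ESCs and 565 and 515 RPM in day-4 PGCLCs against 5.71 and 1.55 RPM in EpiLCs. Nr5a2 (−0.80 ± 0.32) and Fbxo15 (−0.63 ± 0.29) also missed the threshold, and in EpiLCs Nr5a2 was at 0 and 0.387 RPM and Fbxo15 at 2.29 and 6.19 RPM.

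Other naive genes were far below their ESC levels. Klf4 (chromosome 4, 55527137 to 55532475), the Krüppel-like factor used in reprogramming, was at 142 and 151 RPM in ESCs and 5.17 and 4.05 RPM in day-4 PGCLCs and at 1.52 and 0 RPM in EpiLCs. It fell by 4.72 ± 0.49 (adjusted p = 2.10e-06), a 31.7-fold ratio of mean RPM. Tbx3, a T-box factor, went from 42.7 and 43.3 to 1.41 and 0.579 RPM (−4.49 ± 0.48). Jam2, a junction adhesion molecule, went from 343 and 313 to 12.7 and 17.6 RPM (−4.37 ± 0.61). Klf2 and Klf5 thus sat at ESC levels in the libraries in which Klf4 was low. Dppa5a, an RNA-binding protein and one of the most abundant ESC transcripts, fell from 5602 and 5811 to 495 and 587 RPM (−3.4 ± 0.18, adjusted p = 1.54e-09). The repressor gene Nr0b1 (−2.26 ± 0.53), Tfcp2l1 (−1.77 ± 0.32) and Zfp42 (−1.69 ± 0.29) fell as well. Zfp42 was at 305 and 241 RPM in d4c7 FR10, on both sides of its ESC level of 261 and 277 RPM. Pecam1, a surface protein of ESCs and germ cells, was the member that rose, from 24.5 and 25.7 to 61.5 and 51.7 RPM (1.14 ± 0.25). Gbx2 and Manba did not pass the test, and Tet2 and Zfp57 were too low to test. Nr0b1 lost its call without day-4 replicate 2 (adjusted p = 0.0572).

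**Figure D2:**
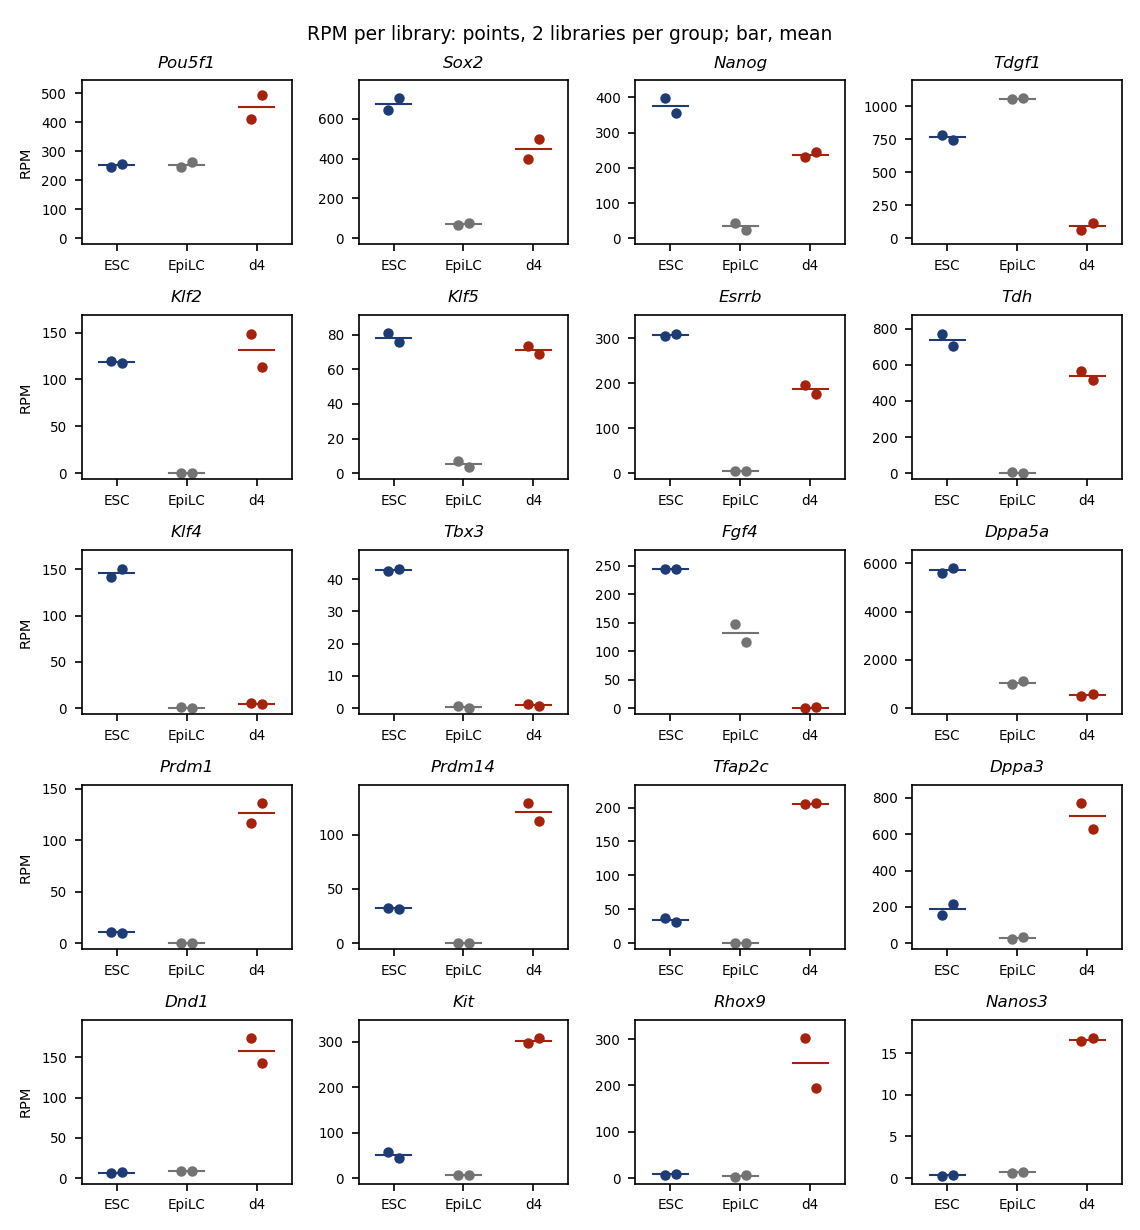
RPM (y axis, linear, a scale per gene) in the 2 libraries each of ESCs, EpiLCs and day-4 PGCLCs (d4), with bars at group means. Klf2, Klf5, Esrrb and Tdh are near 0 in EpiLCs and not in d4, Klf4, Tbx3, Fgf4 and Dppa5a are low in d4, and the germ cell genes of the lower panels are highest in d4.

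Germ cell specification genes were mostly higher. Of 17 tested members 14 rose and 2 fell, where 24.3% and 10.2% of all tested genes did. The list's median was 2.05. Leaving out any 1 of the 4 libraries left 1 of the falls. Prdm1, which encodes the repressor Blimp1, went from 11.1 and 9.8 to 117 and 136 RPM (3.47 ± 0.43, adjusted p = 1.53e-05). Cells were sorted by a reporter of this very gene, and its rise cannot be separated from that choice. Tfap2c, the AP-2 factor downstream of Prdm1, went from 37.4 and 31.4 to 205 and 206 RPM (2.55 ± 0.26, adjusted p = 1.78e-06), a 5.98-fold ratio. Prdm14, which represses epiblast and methylation genes in both ESCs and germ cells, went from 32.6 and 31.4 to 129 and 113 RPM (1.88 ± 0.31). Dppa3, also called Stella, was at 154 and 217 RPM in ESCs and 771 and 628 RPM in day-4 PGCLCs (1.92 ± 0.24). ESCs thus already carried all of these genes but at lower levels. In EpiLCs Prdm14 was at 0.19 and 0 RPM, Tfap2c at 0.571 and 0 RPM and Dppa3 at 21.7 and 34.8 RPM.

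Dnd1, which protects germ cell messages from microRNAs, was at 5.83 and 7.58 RPM in ESCs and 174 and 142 RPM in day-4 PGCLCs, a rise of 4.37 ± 0.24 (adjusted p = 2.68e-09) and a 23.6-fold ratio. Nanos3, a translational repressor required for germ cell survival, was at 0.265 and 0.37 RPM in ESCs and 16.4 and 16.8 RPM in day-4 PGCLCs (3.74 ± 0.38). Its ESC values amount to about the level of single reads. The X-linked homeobox genes Rhox6 and Rhox9 rose as well, Rhox6 from 14.3 and 12.9 to 263 and 139 RPM (3.72 ± 0.24) and Rhox9 from 6.89 and 9.06 to 302 and 195 RPM (4.77 ± 0.28). They are near neighbours of one family, and their reads may be shared. In d4c7 FR10 Rhox6 was at 702 and 745 RPM and Rhox9 at 815 and 784 RPM, above the day-4 libraries.

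Kit, the receptor of the stem cell factor added to the PGCLC medium, went from 56.7 and 44.4 to 297 and 308 RPM (2.57 ± 0.25, adjusted p = 1.11e-06). Itgb3, an integrin used to isolate PGCLCs, went from 0.397 and 0.555 to 15 and 27 RPM (3.85 ± 0.41), and Alpl, the alkaline phosphatase of both cell types, rose by 1.53 ± 0.24. Ifitm3, also called Fragilis, rose from 338 and 329 to 975 and 930.5 RPM (1.51 ± 0.25), Ifitm1 by 0.70 ± 0.16, and the SOX factor Sox15 by 2.05 ± 0.41. After median-ratio scaling 13 members rather than 14 rose. Tcl1, an AKT coactivator, fell from 93.5 and 101 to 31 and 22.2 RPM (−1.85 ± 0.28), and Elf3 fell as well (−1.12 ± 0.35). Tcl1 was at 139.8 and 139.8 RPM in d4c7 FR10. Lifr, the LIF receptor, did not pass the test (−0.37 ± 0.41), and Cxcr4, at 1.88 and 1.74 RPM in day-4 PGCLCs and listed at 0 in ESCs, was too low to test. Ifitm1 lost its call after median-ratio scaling (adjusted p = 0.223). Elf3 lost its call without either ESC library or either day-4 library (adjusted p = 0.0764 to 0.112).

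For genes of later germ cells and meiosis, no rise passed the test. Of 15 tested members 0 rose by limma and 3 fell, where 24.3% and 10.2% of all tested genes did. The list's median was −0.72, and its number of rises was also 0 at an unadjusted p under 0.05 and by voom. Voom called 1 fall. The median was −0.44 without day-4 replicate 1 and −1.13 without day-4 replicate 2. The summed level of all 20 listed genes was 145 and 149.7 RPM in ESCs and 28.6 and 50.2 RPM in day-4 PGCLCs. Rpl10l alone made up 76.6 and 84 RPM of the ESC sums and 3.76 and 9.65 RPM of the day-4 sums. Dazl, an RNA-binding protein of licensed germ cells, was at 11.5 and 5.92 RPM in ESCs and 2.35 and 3.48 RPM in day-4 PGCLCs, and d4c7 FR10 had 724 and 881 RPM. Ddx4, the germ cell helicase, was at 1.99 and 9.99 RPM in ESCs and 5.17 and 12.2 RPM in day-4 PGCLCs. Hormad1, a meiotic axis protein, fell from 15 and 11.5 to 0.47 and 1.16 RPM (−2.99 ± 0.57, adjusted p = 7.22e-04). Rpl10l, a retrocopy of Rpl10, fell from 76.6 and 84 to 3.76 and 9.65 RPM (−3.51 ± 0.75), and it may share reads with its parent gene. Gpat2 fell from 1.59 and 2.96 to 0 and 0.386 RPM, levels of a few reads. Leaving out any 1 of the 4 libraries left 2 falls in this list, and median-ratio scaling gave 5. Hormad1 lost its call with voom on inferred reads (adjusted p = 0.0514). Gpat2 lost its call without either ESC library or either day-4 library, with a pseudocount of 10 RPM, with no filter and with voom on inferred reads (adjusted p = 0.0624 to 0.573).

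Meiotic genes of ESCs and early germ cells are known to be held down by PRC1.6, a Polycomb complex whose MGA and MAX subunits bind the E-box CACGTG. The palindrome CACGTG was found in the promoter window (250 bases before to 50 after the start, RefSeq, GRCm38.p6) of 12 of 18 later germ cell genes with an entry, or 66.7%. It was in 8.09% of all promoter windows, in 12.8% of those of the 7748 tested genes with an entry, in 15.0% of those called higher and in 10.0% of those called lower. GCGGGA on either strand, also a planned motif, was in 50% of the later germ cell windows and in 42.6% of those of tested genes. The windows of Gpat2 and Rpl10l, which fell with Hormad1, held 0 matches to CACGTG. The Hormad1 promoter (chr3:95559427-95559726, plus strand) is shown because it holds 2 of these E-boxes, as do those of Sycp3 and Fkbp6. The E-boxes of Hormad1 are in capitals, beginning 57 and 20 bases before the start.
Hormad1: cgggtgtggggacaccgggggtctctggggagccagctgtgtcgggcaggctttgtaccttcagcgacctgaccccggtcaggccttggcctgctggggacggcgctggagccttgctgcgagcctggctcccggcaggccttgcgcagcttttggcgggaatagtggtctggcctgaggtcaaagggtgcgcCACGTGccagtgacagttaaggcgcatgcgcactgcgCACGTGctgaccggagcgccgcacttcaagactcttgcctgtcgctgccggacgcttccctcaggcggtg
Of 14 PRC1.6 genes 1 rose and 1 fell, and 5 had intervals inside 2-fold. Of all tested genes 24.3% rose, 10.2% fell and 20.3% had such intervals. Max, the shared partner of MYC and MGA, rose from 23.1 and 30.2 to 122 and 130.1 RPM (2.21 ± 0.29, adjusted p = 2.60e-05). Wdr5 fell (−1.18 ± 0.23), and Mga (23.8 and 32.7 RPM in ESCs and 40.4 and 38.2 RPM in day-4 PGCLCs) and Pcgf6 (0.56 ± 0.33) did not pass the test.

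Formative and primed epiblast genes did not move as a block. Of 16 tested members 6 rose and 5 fell, where 24.3% and 10.2% of all tested genes did. The median was −0.54, or −0.18 without day-4 replicate 1. Otx2, a head and epiblast factor that blocks germ cell entry, was at 7.55 and 4.07 RPM in ESCs and 0.939 and 1.35 RPM in day-4 PGCLCs and at 69.7 and 50.3 RPM in EpiLCs, and it fell by 1.62 ± 0.46. Foxd3 went from 19.5 and 19.05 RPM to 0 in both day-4 libraries (adjusted p = 2.19e-06), and Zic5 from 13.1 and 13.5 RPM to 0 (adjusted p = 9.67e-05). Fgf5, the classic EpiLC marker, was listed at 0 in ESCs, at 4.23 and 4.63 RPM in day-4 PGCLCs and at 46.1 and 48.8 RPM in EpiLCs. Sox4, a SOXC factor, rose from 0.53 and 0.555 to 31 and 30.3 RPM (4.36 ± 0.36) and was at 112 and 123 RPM in EpiLCs. The keratin gene Krt18 rose from 3.18 and 4.44 to 34.8 and 32.4 RPM (2.86 ± 0.42), against 60.4 and 71.6 RPM in EpiLCs. Sox3, the SOXB1 partner of Sox2, rose by 1.84 ± 0.50 and reached 1.88 and 6.37 RPM, with 40.6 and 44.9 RPM in EpiLCs. The day-4 levels of Fgf5, Sox4, Krt18 and Sox3 lay between those of ESCs and EpiLCs, while those of Otx2, Foxd3 and Zic5 lay below ESCs. Pou3f1 was at 0.47 and 1.54 RPM and its difference from ESCs did not pass the test (−1.07 ± 0.76), with 127 and 192 RPM in EpiLCs. Otx2 lost its call without ESC replicate 1 or day-4 replicate 1 (adjusted p = 0.0788 to 0.126). Sox3 lost its call without ESC replicate 2 or day-4 replicate 2 and with a pseudocount of 0.1 RPM (adjusted p = 0.0567 to 0.146).

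FGF signalling runs from ligands through receptors to ERK, whose activity induces its own inhibitors of the DUSP, Sprouty and Spred families and the ETV factors. Of the media, that of ESCs held a MEK inhibitor, and none is listed for the PGCLC medium. Of 18 tested response genes 15 rose, where 24.3% of all tested genes did, and the list's median was 2.37. At an unadjusted p under 0.05, and by voom, 16 rose, and by none of these did a gene of the list fall. Dusp4 (chromosome 8, 34807610 to 34819894), a nuclear ERK phosphatase, was at 1.06 and 1.48 RPM in ESCs and 188 and 225 RPM in day-4 PGCLCs (6.52 ± 0.23, adjusted p = 1.33e-11), and EpiLCs had 39.4 and 54.2 RPM. Spry4, a Sprouty inhibitor, went from 1.72 and 2.04 to 35.7 and 39 RPM (3.74 ± 0.52), and the ETS factor Etv5 from 158 and 155 to 441 and 448 RPM (1.5 ± 0.28). The immediate early gene Fos was at 0 and 0.185 RPM in ESCs and 45.1 and 18.5 RPM in day-4 PGCLCs (4.78 ± 0.53), and Junb at 5.7 and 7.4 RPM in ESCs and 83.6 and 47.1 RPM in day-4 PGCLCs (3.09 ± 0.43). For both, day-4 replicate 1 was the higher library of its group. EpiLCs had 0.19 and 0 RPM of Fos and 4 and 5.8 RPM of Junb. Spred2 (2.23 ± 0.27), Dusp5 (4.12 ± 0.50) and Etv4 (2.81 ± 0.40) rose too. The count of 15 was 11 without ESC replicate 1 or either day-4 library, 10 without ESC replicate 2, and 13 after median-ratio scaling. Dusp14, Etv1 and Ier3 did not pass the test, and Fosl1 was listed at 0 in all 4 libraries.

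Of 8 tested FGF ligands and receptors 4 rose, among them all 3 tested receptors, and 3 ligands fell. Over all tested genes 24.3% rose and 10.2% fell. Fgf4 (chromosome 7, 144861386 to 144865245), the autocrine FGF of ESCs, was at 244 and 245 RPM in ESCs and 0 and 1.35 RPM in day-4 PGCLCs and fell by 7.32 ± 0.67 (adjusted p = 6.40e-07). EpiLCs had 147 and 116 RPM. Fgf10 fell from 11 and 20.5 RPM to 0 in both day-4 libraries (adjusted p = 9.27e-06), and Fgf17 from 11.5 and 16.3 to 2.35 and 3.09 RPM (−1.99 ± 0.56). Fgfr1, the main receptor of the epiblast, rose from 37.9 and 35.3 to 149 and 131 RPM (1.9 ± 0.24, adjusted p = 1.63e-05). Fgfr2, the receptor typical of primitive endoderm and trophoblast, went from 1.59 and 0.74 to 44.1 and 32.8 RPM (4.2 ± 0.50) and was at 3.43 and 0 RPM in EpiLCs. Fgfr3 rose from 0 and 0 to 3.29 and 1.16 RPM (1.61 ± 0.54). Fgf2 was listed at 0 in all 4 libraries. Fgf17 lost its call without ESC replicate 2 or day-4 replicate 1 and with a pseudocount of 0.1 RPM (adjusted p = 0.0768 to 0.249). Fgfr3 lost its call without either ESC library or day-4 replicate 1, with a pseudocount of 10 RPM, with no filter and after median-ratio scaling (adjusted p = 0.0539 to 0.297).

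BMP signals through SMAD1, SMAD5 and SMAD4 to ID and MSX genes, and the day-4 medium contained BMP4. Of 19 listed genes 14 were tested, of which 9 rose and 2 fell, where 24.3% and 10.2% of all tested genes did. The list's median was 1.5. After median-ratio scaling 7 rose, with a median of 1.15. Without 1 of the 4 libraries the median was 1.275 to 1.498. The direct target Id3 went from 56.4 and 49.8 to 549 and 578 RPM (3.39 ± 0.28, adjusted p = 2.21e-07), Id2 from 4.11 and 2.59 to 71.4 and 46 RPM (3.77 ± 0.46) and Id1 from 17.9 and 7.95 to 43.7 and 53.7 RPM (1.93 ± 0.58). Msx2, a homeobox target, was listed at 0 in both ESC and both EpiLC libraries and at 96.3 and 66.2 RPM in day-4 PGCLCs (adjusted p = 6.15e-07). It was at 1.55 and 4.83 RPM in d4c7 FR10. Among these groups Msx2 reached the 10 RPM of the filter only in day-4 PGCLCs, so the filter may have shaped the count of rises. The GATA factor gene Gata2 rose from 6.62 and 2.22 to 115 and 80.7 RPM (4.3 ± 0.44), and the inhibitory Smad6 from 3.44 and 0.925 to 57.8 and 40.4 RPM (4.07 ± 0.48). The decoy receptor Bambi rose by 1.99 ± 0.46, and the receptor Bmpr1a did not pass the test (0.43 ± 0.32). Id4 fell by 1.43 ± 0.48, and the homeobox gene Hhex fell from 13.4 and 16.5 to 0.939 and 0.193 RPM (−3.38 ± 0.61). Leaving out any 1 of the 4 libraries left 1 of the falls. Id1 lost its call without ESC replicate 2 or either day-4 library (adjusted p = 0.0581 to 0.178). Id4 lost its call without either ESC library or either day-4 library and with a pseudocount of 0.1 RPM (adjusted p = 0.0841 to 0.214).

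A few mesoderm genes were higher as well. Of 21 listed mesoderm genes 4 reached the testing level, of which 3 rose, where 24.3% of all tested genes did. Evx1 and Wnt5a met that level, 10 RPM in 2 of the 18 libraries, in the day-4 libraries where they were high. The filter thus shaped this count, which is no result about the list. Evx1, a homeobox gene of the primitive streak, was at 0.132 and 0 RPM in ESCs and 27.7 and 21.2 RPM in day-4 PGCLCs (4.57 ± 0.57, adjusted p = 1.54e-05) and listed at 0 in EpiLCs. Wnt5a reached 10.3 and 10.2 RPM and Lhx1 6.11 and 7.72 RPM, the latter listed at 0 in ESCs. T, the master gene of mesoderm, was too low to test at 2.65 and 2.4 RPM in ESCs and 3.76 and 4.63 RPM in day-4 PGCLCs. None of 17 Hox genes was tested, and their summed level was 4.11 and 4.81 RPM in ESCs and 2.82 and 4.44 RPM in day-4 PGCLCs.

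ESCs were kept with a GSK3 inhibitor, which mimics WNT, and WNT pathway genes moved both ways. Of 10 tested genes 2 rose, near the share of all tested genes (24.3%), and 3 fell, with 1 rise left after median-ratio scaling or without either ESC library or day-4 replicate 1. Lef1, the WNT effector that is itself a target, rose from 1.59 and 2.22 to 101 and 79 RPM (4.97 ± 0.47, adjusted p = 7.93e-07). Sp5 fell from 36.7 and 57 to 7.04 and 5.99 RPM (−2.64 ± 0.44), and Ccnd1, the G1 cyclin, from 63.5 and 48.8 to 0.939 and 3.28 RPM (−4.3 ± 0.58). Axin2, the target used most often as a readout, was at 9.41 and 16.3 RPM in ESCs and 10.3 and 21 RPM in day-4 PGCLCs (0.24 ± 0.59, adjusted p = 0.788). The repressor Tcf7l1 fell from 62.4 and 65.7 to 17.4 and 14.7 RPM (−1.94 ± 0.53). Sp5 lost its call with a pseudocount of 0.1 RPM (adjusted p = 0.0644). Tcf7l1 lost its call without ESC replicate 2 or day-4 replicate 2 (adjusted p = 0.0578 to 0.0602).

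**Figure D3:**
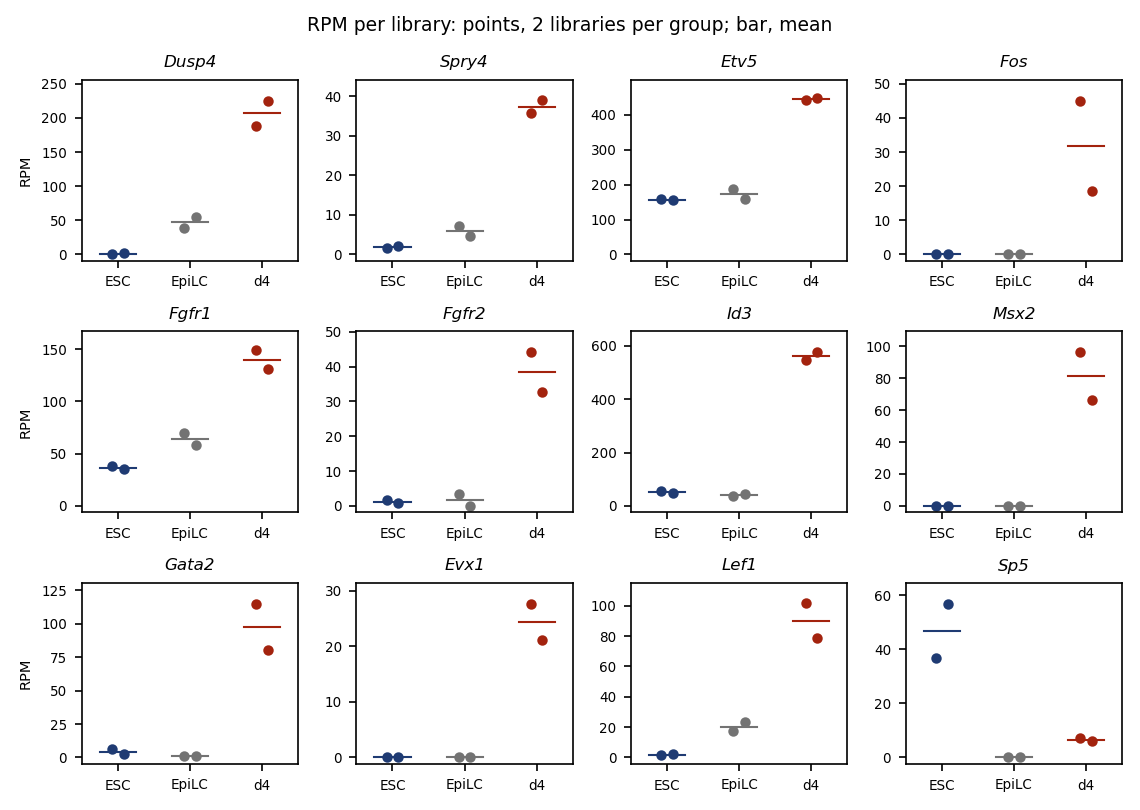
RPM (y axis, linear, a scale per gene) in the 2 libraries each of ESCs, EpiLCs and day-4 PGCLCs (d4), with bars at group means, for FGF, BMP, mesoderm and WNT genes. Every d4 library lies above every ESC library except for Sp5, which is lower in d4. Of the 9561 tested genes 7563 had no overlap between the 2 groups, so this is common.

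In the NODAL list 7 of 12 rose and 2 fell, with 3 rising after median-ratio scaling or without ESC replicate 1 or day-4 replicate 2, and 4 without day-4 replicate 1. Over all tested genes 24.3% rose and 10.2% fell. The effector genes Smad3 (2.2 ± 0.36) and Foxh1 (1.00 ± 0.22) rose. The inhibitor Fst fell from 14.6 and 18.7 to 0 and 0.193 RPM (−4.0 ± 0.48), and Nodal itself was at 19.7 and 17.8 RPM in ESCs and 21.1 and 17.4 RPM in day-4 PGCLCs, with an interval of −0.77 to 0.83. Both media contained LIF at the same dose. Stat3, the LIF effector, was at 66.8 and 63.1 RPM in ESCs and 59.6 and 65.7 RPM in day-4 PGCLCs, with an interval of −0.88 to 0.77, against 10.1 and 2.71 RPM in EpiLCs. Il6st, the shared cytokine receptor, also had its interval inside 2-fold (−0.87 to 0.39). Socs2, a suppressor of cytokine signalling, rose from 87.2 and 82.1 to 544 and 434 RPM (2.51 ± 0.22, adjusted p = 4.22e-07). Pias1 (2.14 ± 0.33) and Jak2 (2.06 ± 0.62) rose with it. Jak2 lost its call without ESC replicate 2 or day-4 replicate 1 and with a pseudocount of 0.1 RPM (adjusted p = 0.108 to 0.192).

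Dnmt3b (chromosome 2, 153649411 to 153687730), a de novo methyltransferase, was at 111 and 105 RPM in ESCs and 3.29 and 3.09 RPM in day-4 PGCLCs and at 1414 and 1352 RPM in EpiLCs. Against ESCs it fell by 4.7 ± 0.32 (adjusted p = 2.01e-08). Dnmt3l, its cofactor, went from 67.7 and 59.4 to 0.939 and 0.386 RPM (−5.3 ± 0.58), and Uhrf1, which brings Dnmt1 to replicating DNA, from 178 and 203 to 7.51 and 10.8 RPM (−4.25 ± 0.41, adjusted p = 9.59e-07). Dnmt1, the maintenance enzyme, rose by 1.01 ± 0.25, and Uhrf2, the relative of Uhrf1, rose from 21.6 and 26.1 to 194 and 147 RPM (2.78 ± 0.23). Uhrf1 and Uhrf2 thus moved in opposite directions, and both kept their calls without any 1 of the 4 libraries. Dnmt3a was at 7.55 and 15.5 RPM in ESCs and 25.8 and 14.7 RPM in day-4 PGCLCs (0.79 ± 0.40, not called), and the oxidase Tet1 had like levels, at 169 and 174 RPM in ESCs and 186 and 198 RPM in day-4 PGCLCs. Of 13 tested genes 3 rose, or 2 after median-ratio scaling, and 3 fell. The share that rose was near the 24.3% of all tested genes, of which 10.2% fell. Dnmt1 lost its call without day-4 replicate 1 (adjusted p = 0.0593).

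In the Polycomb complex PRC2 2 of 11 genes rose, a share below the 24.3% of all tested genes, while Eed and Suz12 had like levels and Ezh2 did not pass the test (0.27 ± 0.39). The accessory subunit Phf19 went from 1.46 and 0.37 to 89.2 and 55.8 RPM (5.29 ± 0.32, adjusted p = 6.84e-09) and was at 2.1 and 1.93 RPM in EpiLCs and 122 and 94.9 RPM in d4c7 FR10. Jarid2, another accessory subunit, rose by 1.41 ± 0.22. In the H3K9 list 5 of 15 rose, where 24.3% of all tested genes did, and 2 without ESC replicate 1 or after median-ratio scaling, 1 without ESC replicate 2 and 3 without either day-4 library. The demethylase Kdm3b rose from 27.7 and 28.1 to 97.7 and 77.2 RPM (1.6 ± 0.29).

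Imprinted genes, whose parental methylation is erased in germ cells later on, were higher in 9 of 16 tested cases and lower in 2. Among all tested genes 24.3% were higher and 10.2% lower, and the list's median was 1.6. The falls numbered 0 without ESC replicate 1 or day-4 replicate 1, and 1 without ESC replicate 2 or day-4 replicate 2. H19 and Igf2, the reciprocally imprinted neighbours on chromosome 7, both rose. H19 went from 0.662 and 0.74 to 101 and 65.3 RPM (5.59 ± 0.38) and Igf2 from 0.132 and 0.74 to 55.4 and 51.9 RPM (5.28 ± 0.76). Peg3 went from 44.5 and 47.2 to 281 and 449 RPM (2.93 ± 0.28) and Slc38a4 from 12.5 and 17.2 to 180.3 and 183 RPM (3.55 ± 0.31). Phlda2 rose by 2.11 ± 0.24 and Igf2r, the decoy receptor of IGF2, by 2.19 ± 0.42. Meg3 fell from 144 and 132 to 44.6 and 42.7 RPM (−1.64 ± 0.49) and Plagl1 fell as well (−2.0 ± 0.56). RPM does not show which parental copy was read. Meg3 lost its call without either ESC library or either day-4 library (adjusted p = 0.0699 to 0.088). Plagl1 lost its call without ESC replicate 1 or day-4 replicate 1 and with a pseudocount of 0.1 RPM (adjusted p = 0.0746 to 0.132).

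Of 20 glycolysis and hypoxia genes none rose, by limma with or without adjustment or by voom. In this list 10 fell (12 without adjustment, 11 by voom), and the median was −0.93. Over all tested genes 24.3% rose and 10.2% fell. Ldhb, the lactate dehydrogenase of oxidative tissues, fell from 581 and 577 to 181 and 145 RPM (−1.83 ± 0.25, adjusted p = 3.36e-05). Ldha, its counterpart in glycolytic cells, fell from 177 and 177 to 62 and 40.0 RPM (−1.81 ± 0.62) and was at 597 and 575 RPM in EpiLCs. The glucose transporter Slc2a3 fell from 991 and 1064 to 360.2 and 518 RPM (−1.25 ± 0.20), and Gpi1, the glucose phosphate isomerase, fell as well (−1.04 ± 0.19). Gapdh did not pass the test (−0.37 ± 0.16), and its interval lay inside 2-fold. The list had 5 falls without either ESC library and 4 or 6 without day-4 replicate 1 or 2, and 13 after median-ratio scaling. Oxidative phosphorylation genes fell in 7 of 20 cases (median −0.52), among them Ndufa4 (−0.91 ± 0.16). That number was 3 without either ESC library, 1 without day-4 replicate 1, and 11 after scaling. The median was −0.22 without day-4 replicate 1 and −0.88 after scaling. For Cox6c the day-4 libraries lay apart, at 139 and 402 RPM, below 683 and 669 RPM in ESCs. Ldha lost its call without either ESC library or either day-4 library and with no filter (adjusted p = 0.0652 to 0.179). Cox6c lost its call without day-4 replicate 1 (adjusted p = 0.156).

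Cholesterol synthesis genes fell in 8 of 20 cases and rose in 1, where 10.2% and 24.3% of all tested genes did. After median-ratio scaling 12 of the list fell. Insig1, a sterol sensor and SREBP target, went from 74.6 and 72.7 to 17.4 and 13.1 RPM (−2.21 ± 0.39, adjusted p = 3.67e-04). Fdps (−1.09 ± 0.20), Fdft1 (−1.06 ± 0.21) and Nsdhl (−1.77 ± 0.30) fell with it. Hmgcs1 was the member that rose, from 67.7 and 77.7 to 158 and 145 RPM (1.05 ± 0.29). Hmgcs1 lost its call without ESC replicate 1 or day-4 replicate 1 and after median-ratio scaling (adjusted p = 0.0553 to 0.0794).

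Genes of amino acid supply and of the integrated stress response, which ATF4 runs, were lower in several cases. Asns, asparagine synthetase, went from 1003 and 1022 to 319.8 and 269.6 RPM (−1.78 ± 0.27, adjusted p = 8.82e-05). Atf4 itself went from 516 and 522 to 217 and 198 RPM (−1.32 ± 0.20, adjusted p = 8.15e-05), and Trib3, a pseudokinase target of ATF4, from 71 and 96.2 to 4.7 and 7.34 RPM (−3.6 ± 0.46). Psph, the last enzyme of serine synthesis, fell by 1.85 ± 0.36. Sesn2, a sestrin, fell by 1.38 ± 0.33, and Nupr1, a stress-induced chromatin protein, from 143 and 168 to 2.35 and 1.74 RPM (−5.69 ± 0.53). EpiLCs had 818 and 724 RPM of Atf4 and 144 and 163 RPM of Trib3. In the amino acid list 7 of 19 fell and 1 rose, and in the endoplasmic reticulum stress list 7 of 17 fell and 1 rose. Over all tested genes 10.2% fell and 24.3% rose. In the first list 3 falls were left without ESC replicate 1 and 4 without ESC replicate 2 or either day-4 library, and 11 were found after median-ratio scaling. In the second list 4 were left without either ESC library and 2 without day-4 replicate 2, and 10 were found after scaling. The chaperone gene Hspa5, at 383 and 362 RPM in ESCs and 315 and 320.1 RPM in day-4 PGCLCs, had an interval inside 2-fold, and Mat2a rose by 0.93 ± 0.17. Sesn2 lost its call without day-4 replicate 2 (adjusted p = 0.0666).

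The motif TGATGNAA on either strand, the core of the element that ATF4 binds, was searched after the values were seen. It was in 4.51% of all promoter windows, in 2.62% of those of tested genes and in 4.56% of those called lower. In the endoplasmic reticulum stress list 4 of 17 windows held it, and in the amino acid list 2 of 18. The promoters of Asns (chr6:7693160-7693459, minus strand) and Trib3 (chr2:152344011-152344310, minus strand) are shown as 2 members that fell and hold a match, in capitals.
Asns: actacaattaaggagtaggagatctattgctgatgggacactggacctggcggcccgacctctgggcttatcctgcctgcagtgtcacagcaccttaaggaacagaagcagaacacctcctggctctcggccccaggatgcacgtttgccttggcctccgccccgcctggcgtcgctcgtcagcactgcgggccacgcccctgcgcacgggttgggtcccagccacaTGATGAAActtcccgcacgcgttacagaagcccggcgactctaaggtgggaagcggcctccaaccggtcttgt
Trib3: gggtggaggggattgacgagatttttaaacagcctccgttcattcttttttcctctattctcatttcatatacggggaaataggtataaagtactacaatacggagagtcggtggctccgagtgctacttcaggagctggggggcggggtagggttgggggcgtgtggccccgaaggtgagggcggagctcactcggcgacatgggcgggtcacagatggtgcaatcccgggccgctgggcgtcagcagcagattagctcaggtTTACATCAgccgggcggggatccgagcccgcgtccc
The match begins 23 bases before the start of Asns, on the printed strand, and 14 bases after the start of Trib3, where it reads on the other strand.

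Of 19 tested genes of metal and oxidative stress 11 fell and 3 rose, where 10.2% and 24.3% of all tested genes did. The list's median was −0.83. The metallothioneins, small proteins that bind zinc and copper, were among the abundant transcripts of ESCs. Mt2 was at 2972 and 2831 RPM in ESCs and 42.7 and 72.4 RPM in day-4 PGCLCs (−5.68 ± 0.35, adjusted p = 7.53e-09), a 50.4-fold ratio, and Mt1 at 1355 and 1323 RPM in ESCs and 28.6 and 43.3 RPM in day-4 PGCLCs (−5.21 ± 0.44, adjusted p = 2.68e-07), a 37.2-fold ratio. EpiLCs were in between, with Mt2 at 449 and 671 RPM and Mt1 at 276 and 429 RPM. Gsta4, a glutathione transferase, fell from 697 and 719 to 58.2 and 75.1 RPM (−3.4 ± 0.18), catalase (Cat) from 119 and 116 to 12.2 and 12.6 RPM (−3.15 ± 0.67), and the NRF2 target Nqo1 from 113 and 101 to 16 and 17.4 RPM (−2.61 ± 0.56). Gclm and Gclc, the 2 subunits of the enzyme that starts glutathione synthesis, moved in opposite directions (−1.57 ± 0.28 and 1.63 ± 0.24). The falls numbered 7 without either ESC library or day-4 replicate 2, and 1 gene rose after median-ratio scaling.

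Mt1 and Mt2 lie beside each other on chromosome 8 and are switched on by MTF1, which binds metal response elements with the core TGCACNC or TGCGCNC. This core, searched on both strands after the values were seen, was in 28.2% of all promoter windows and in 42% of those of tested genes. The windows of Mt2 (chr8:94172368-94172667, plus strand) and Mt1 (chr8:94178839-94179138, plus strand) are shown because these genes fell together, with 4 and 3 matches in capitals.
Mt2: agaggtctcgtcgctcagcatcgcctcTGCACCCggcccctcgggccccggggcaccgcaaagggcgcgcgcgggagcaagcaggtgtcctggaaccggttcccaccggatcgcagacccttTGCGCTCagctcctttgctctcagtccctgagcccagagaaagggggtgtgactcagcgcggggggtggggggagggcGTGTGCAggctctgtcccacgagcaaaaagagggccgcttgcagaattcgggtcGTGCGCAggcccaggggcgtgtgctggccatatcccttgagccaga
Mt1: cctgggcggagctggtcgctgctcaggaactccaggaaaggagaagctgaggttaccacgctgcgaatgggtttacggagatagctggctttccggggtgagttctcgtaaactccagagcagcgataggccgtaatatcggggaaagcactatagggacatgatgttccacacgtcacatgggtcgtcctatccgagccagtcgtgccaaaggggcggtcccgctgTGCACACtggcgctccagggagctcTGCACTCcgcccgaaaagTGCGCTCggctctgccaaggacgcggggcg

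**Figure D4:**
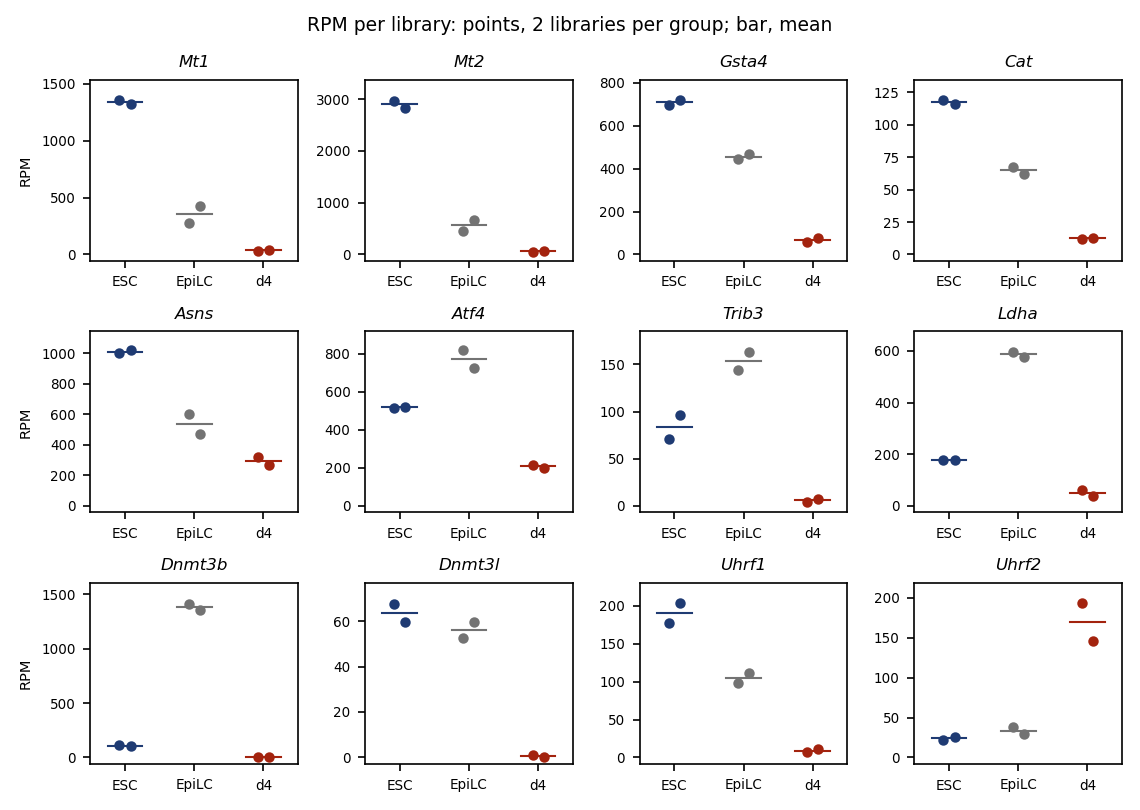
RPM (y axis, linear, a scale per gene) in the 2 libraries each of ESCs, EpiLCs and day-4 PGCLCs (d4), with bars at group means, for stress, metabolic and DNA methylation genes. Uhrf2 is the gene of the 12 shown that is higher in d4 than in ESCs.

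Of 20 G2 and M phase genes 10 rose, with 6 rising after median-ratio scaling and 6 without ESC replicate 2. At an unadjusted p under 0.05, or by voom, 11 rose, and limma and voom called no fall. Cenpf, a kinetochore protein, rose from 46.6 and 45.1 to 185 and 186 RPM (1.99 ± 0.25, adjusted p = 1.32e-05), Mki67 by 1.23 ± 0.24 and Aurkb by 1.04 ± 0.19. Of 20 S phase genes 5 rose and 2 fell, and 11 had intervals inside 2-fold, Pcna among them. These shares are near those of all tested genes, 24.3% higher and 10.2% lower. The S phase rises numbered 2 after scaling or without ESC replicate 2 and 3 without day-4 replicate 1, and the falls 0 without ESC replicate 1 and 1 without day-4 replicate 1. Of the D cyclins, Ccnd1 fell, as given above, and Ccnd3 rose from 20.5 and 17.8 to 124 and 87.5 RPM (2.39 ± 0.28, adjusted p = 8.22e-06). Cdk6 fell from 48.5 and 45.9 to 12.7 and 8.88 RPM (−2.05 ± 0.38), and the imprinted inhibitor Cdkn1c rose by 2.54 ± 0.65. Cdkn1c lost its call without ESC replicate 1 (adjusted p = 0.0579).

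Trp53, which encodes p53, rose from 82.1 and 66.8 to 446 and 408 RPM (2.51 ± 0.32, adjusted p = 1.69e-05), while EpiLCs had 12.6 and 13.5 RPM. Targets of p53 moved in both directions. Ccng1 fell from 286 and 304 to 59.6 and 67.2 RPM (−2.2 ± 0.23), Zmat3 fell from 64.3 and 62.7 to 18.3 and 22.6 RPM (−1.59 ± 0.26), and Perp rose from 2.65 and 6.1 to 44.6 and 37.5 RPM (3.04 ± 0.34). Mdm2, at 91.3 and 78.6 RPM in ESCs and 86.9 and 90.0 RPM in day-4 PGCLCs, had an interval inside 2-fold. The cell death genes Bcl2l11 (2.15 ± 0.31) and Bad (1.21 ± 0.29) rose, as did Bmf, a 2.12-fold ratio of means. Others went the other way. Bbc3 fell, with an ESC mean 3.62-fold that of day-4 PGCLCs, and Pmaip1 (2.74-fold) did not pass the test. In the whole list 5 of 15 rose and 3 fell, where 24.3% and 10.2% of all tested genes did, and 6 fell after median-ratio scaling.

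Adhesion genes moved in both directions. Cdh1, E-cadherin, fell from 454 and 492 to 155 and 129.6 RPM (−1.73 ± 0.32, adjusted p = 5.22e-04), and Epcam rose from 36.3 and 40.1 to 108 and 125 RPM (1.58 ± 0.23). The collagen receptor subunit Itga1 rose from 0.927 and 0 to 26.8 and 13.3 RPM (3.84 ± 0.56), and Cd24a rose by 2.51 ± 0.33. ESCs were grown on laminin, and day-4 PGCLCs were floating. In all 7 of 18 rose and 5 fell, where 24.3% and 10.2% of all tested genes did. For ribosomal protein genes, 23 of 24 listed members had intervals inside 2-fold and 4 were called lower, or 14 after median-ratio scaling, 1 without either ESC library and 2 without day-4 replicate 2. Rps24, of the small subunit, was among them (−0.94 ± 0.16). Of all 84 tested genes with such names, limma called 25 lower, and 53 after median-ratio scaling, where 10.2% of all tested genes were lower.

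**Figure D5:**
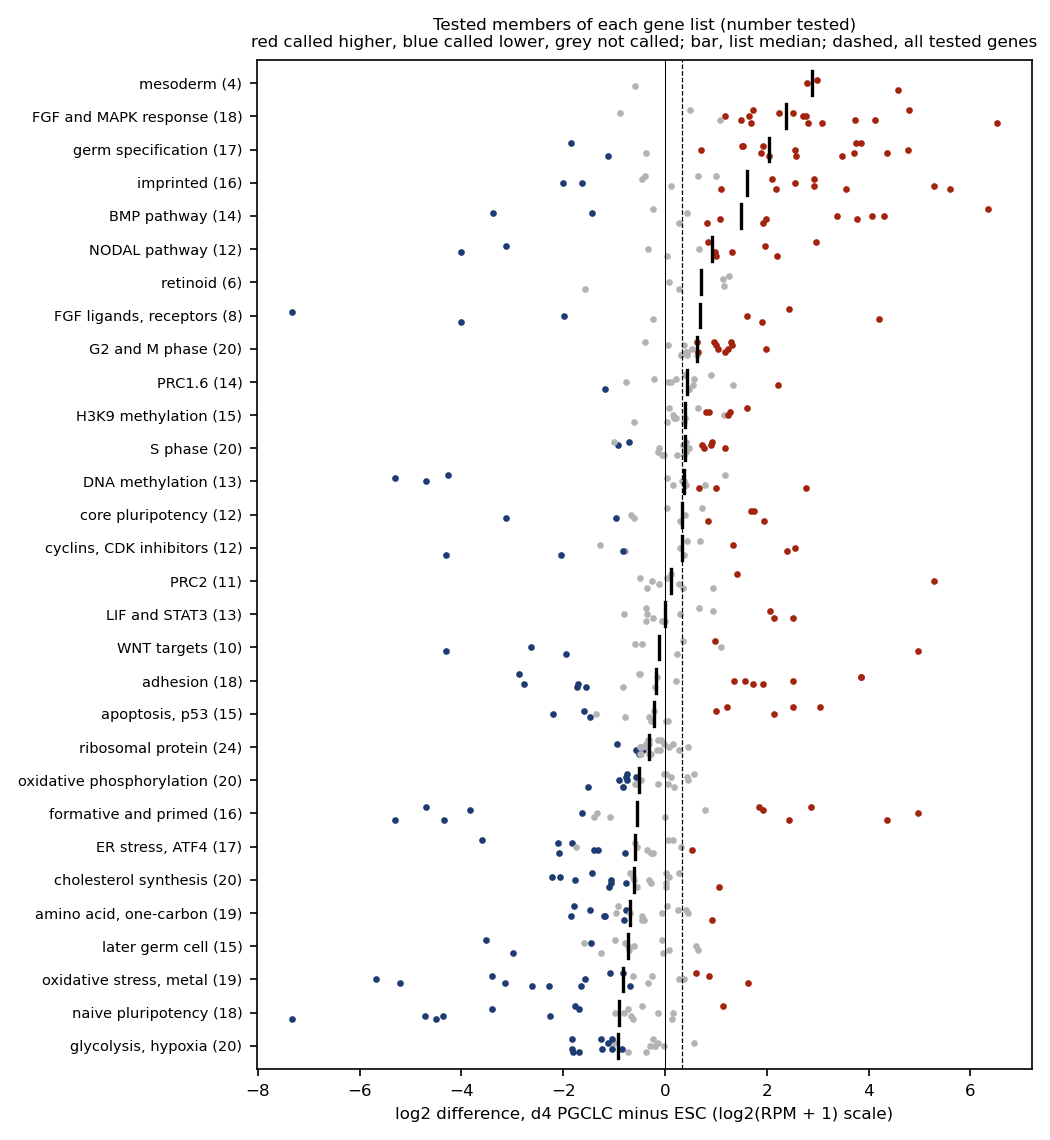
Log2 difference (x axis, day-4 PGCLC minus ESC) of each tested member of the pathway lists with 4 or more tested members, lists of cell type markers left out, with black bars at list medians and a dashed line at the median of all tested genes, 0.34. Points of the FGF and MAPK response and germ specification lists lie mostly right of the dashed line, and those of glycolysis, naive pluripotency and oxidative stress mostly left of it.

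Outside the lists, the largest rises included the iron exporter Slc40a1, at 0.265 and 0 RPM in ESCs and 237 and 224 RPM in day-4 PGCLCs (7.68 ± 0.42, adjusted p = 2.13e-09) and at 15.2 and 13.9 RPM in EpiLCs. Pkdcc, a secreted kinase, followed at 0.53 and 0 RPM in ESCs and 139.9 and 147 RPM in day-4 PGCLCs (6.87 ± 0.59). The protein kinase C gene Prkch (5.63 ± 0.37), the phospholipase gene Plcd1 (5.1 ± 0.26), the integrin ligand Npnt (5.4 ± 0.52) and the actin-bundling Lcp1 (5.17 ± 0.51) also rose. Fndc3c1 was higher than in ESCs, at 28.6 and 41.1 against 0.265 and 0 RPM, and EpiLCs had 57.9 and 52.6 RPM. Ccdc152 and Ttc28 rose by 5.1 ± 0.25 and 5.08 ± 0.41.

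The largest falls beside Fgf4, Nupr1 and Mt2 were of genes with ample reads in ESCs. Spp1, osteopontin, fell from 1958 and 1778 to 28.6 and 28.8 RPM (−5.97 ± 0.23, adjusted p = 2.34e-11), and Stmn2, a tubulin-binding protein, from 627 and 673 to 6.57 and 6.57 RPM (−6.43 ± 0.71). A further 4 genes were listed at 0 in both day-4 libraries. In ESCs Ppp1r14d was at 69.7 and 101 RPM (adjusted p = 9.11e-08), the small heat shock gene Hspb8 at 79.6 and 76.6 RPM (adjusted p = 6.43e-08), Laptm5 at 68.4 and 79.5 RPM (adjusted p = 5.80e-08) and the carbonyl reductase gene Cbr3 at 55.2 and 63.1 RPM (adjusted p = 2.36e-07). Pcolce, a collagen processing enhancer, fell from 153 and 157 to 1.41 and 1.16 RPM (−6.1 ± 0.61), the glutathione peroxidase Gpx2 from 77.8 and 73.4 to 0 and 0.386 RPM (−6.02 ± 0.53), and Klf9 from 82.8 and 90.6 to 0.47 and 0.386 RPM (−5.94 ± 0.54). Mcf2 (−5.95 ± 0.53), Calca (−5.75 ± 0.41) and Pla2g1b (−5.69 ± 0.57) fell in the same range. EpiLCs held 39.6 and 39.5 RPM of Cbr3, 86.1 and 81.6 RPM of Calca and 46.3 and 57.6 RPM of Pla2g1b.

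The 8 largest gains by difference in mean RPM included Ifitm3, given above, and widely expressed genes. Calm2, a calmodulin gene, went from 605 and 667 to 1646 and 1898 RPM (1.48 ± 0.34), Ddx5 from 647 and 563 to 1354 and 1304 RPM (1.14 ± 0.20) and Slc25a4, the mitochondrial ADP/ATP carrier, from 250.1 and 261 to 888 and 996 RPM (1.87 ± 0.24). Sin3b, a corepressor, rose from 141 and 153 to 765 and 655 RPM (2.27 ± 0.15, adjusted p = 1.68e-08). Actg1 (0.62 ± 0.16), Ubb (0.51 ± 0.15) and Tubb5 (0.51 ± 0.18) were also among them. The 8 largest losses included Dppa5a and Mt2, given above. Rps12 fell from 10018 and 10490.0 to 4441 and 4629 RPM (−1.18 ± 0.19), Ptma from 8248 and 8115 to 4211 and 3834 RPM (−1.03 ± 0.20), and the ferritin gene Ftl1 from 4252 and 4443 to 1824 and 1763 RPM (−1.28 ± 0.21). Rplp1 (−0.58 ± 0.16), Rps20 (−0.83 ± 0.17) and Rps23 (−0.80 ± 0.19) were also among these 8 genes. Actg1 lost its call without ESC replicate 2 or day-4 replicate 1 and after median-ratio scaling (adjusted p = 0.0594 to 0.39). Ubb lost its call without either ESC library or day-4 replicate 1 and after median-ratio scaling (adjusted p = 0.0649 to 0.582). Tubb5 lost its call without either ESC library or either day-4 library, with no filter and after median-ratio scaling (adjusted p = 0.0612 to 0.671). Rplp1 lost its call without either ESC library or day-4 replicate 1 (adjusted p = 0.0523 to 0.0861).

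Markers of cells that a culture or a sort could also hold were low. Of 49 markers of fibroblasts, endoderm, trophoblast, blood, endothelium and neural cells, 41 were under 10 RPM in all 4 libraries and 13 were at 0 in all 4. Acta2, Cxcl12, Cubn, Gcm1 and Ascl2 reached 10 RPM in at least 1 day-4 library, and Eomes, Olig2 and Tubb3 in at least 1 ESC library. In the fibroblast list the sum was 6.62 and 3.88 RPM in ESCs and 18.8 and 29.7 RPM in day-4 PGCLCs, with Dcn and Lum at 0 in all 4. Acta2, the smooth muscle actin, was listed at 0 in ESCs and at 10.3 and 11.8 RPM in day-4 PGCLCs. Of 8 tested fibroblast markers Acta2 rose and Thy1 fell. Cxcl12 and Col1a2 did not pass the test, with day-4 means 9.25-fold and 20.8-fold those of ESCs. Endoderm markers summed to 6.89 and 11.3 RPM in ESCs and 22.1 and 15.4 RPM in day-4 PGCLCs. In day-4 PGCLCs Sox17 was at 0 and 0.579 RPM and Gata4 at 0, while Amn was called higher than in ESCs, a 13.3-fold ratio of means. In the trophoblast list, with sums of 29.3 and 26.6 against 46 and 45.6 RPM, Gcm1 was listed at 0 in ESCs and at 28.6 and 31.1 RPM in day-4 PGCLCs (adjusted p = 1.78e-06), while Elf5, Tpbpa and Prl3d1 were at 0 in all 4. Blood and endothelium markers summed to at most 12.1 RPM. Neural markers summed to 81.9 and 71.8 RPM in ESCs and 6.57 and 10.6 RPM in day-4 PGCLCs, and Olig2 was at 57.5 and 45.5 RPM in ESCs and 0.47 and 0.579 RPM in day-4 PGCLCs. The part of such cells in the differences above was not tested. Of 13 genes of the totipotent-like state in the files, 12 were at 0 in all 4 libraries.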

How the data were processed

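RNA of 18 bulk samples was sequenced by SC3-seq. The deposited values are RPM per gene, made by the authors; tools listed in the submitters' processing notes are TopHat 1.4.1, Cufflinks 2.2.0 and cutadapt 1.3, with genome build mm10. Low RPM were whole multiples of 1 read within 0.02 of a read for at least 99.7% of values, from which depth was inferred. Of 34896 listed genes, 46 had no value. Genes at or above 10 RPM in at least 2 of 18 libraries (9561) were tested with limma 3.58.1 (R 4.3.3) on log2(RPM + 1), with 1 mean per group, a trended prior and Benjamini-Hochberg adjustment at 0.05. Unless stated, each adjusted p is from that fit. The script was tested on simulated data. The 4 libraries were grouped by title, and their replicate numbers were not used as pairs. The members and gene lists were chosen with earlier results of these data known. Genes named were the 15 largest rises and falls without overlap, the 8 largest gains and losses in mean RPM, all members of the core, naive and germ specification lists, and up to 8 called and 4 other members of other lists. Otx2, Pou3f1, Sox3, Mga, Pcgf6, Suz12, Fgf2, Id1, Id4, Meg3, Plagl1 and the markers at 0 were named after their values were seen. A few genes that the rule selects are not reported here. Promoter windows are from RefSeq (GRCm38.p6).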

Additional observations from a re-analysis of the deposited data

How the results depend on the processing

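The count of called genes, 3299, was 1974 with a filter at 50 RPM, which tests fewer genes, 5245 with the 4 libraries alone and 5350 with the 6 uncultured libraries, which take the spread from fewer samples. Leaving out 1 of the 4 libraries gave 1990 to 2328 calls, and in that fit the lone library is assumed to vary like the other groups. The count of intervals inside 2-fold, 1940, was 4753 with a pseudocount of 10 RPM, 5704 with no filter, 3489 with the 4 libraries or with the 6 uncultured libraries, 3075 without 3 less repeatable cultured libraries, and 1054 to 1172 without 1 library. With the replicate number as a block 3450 genes were called, among them 3273 of the 3299. The replicate differences of the 2 groups correlated with r = −0.0092 across genes, which cannot decide whether the numbers pair the samples. Voom on inferred reads, chosen after seeing the data, called 3929 genes and 3227 of the 3299. No setting called a gene in the opposite direction. The edgeR and DESeq2 alternatives were not run, because some RPM are no whole multiple of 1 read. Of 211 tested genes named above, none that was called changed sign in any setting. After median-ratio scaling, which lowers all differences, uncalled genes that changed sign were Axin2 at −0.10, Dppa2 at −0.063, Ezh2 at −0.091, Gbx2 at −0.18, Klf2 at −0.23, Mdm2 at −0.30, Nodal at −0.31, Suz12 at −0.32, Tet1 at −0.20 and Trim28 at −0.33. With voom on inferred reads this was so for Nodal at −0.018. Without 1 library the difference spanned 0 for uncalled genes, with ranges of Axin2 −0.24 to 0.72, Ddx4 −0.29 to 1.59, Gbx2 −0.098 to 0.42, Klf2 −0.065 to 0.33, Mdm2 −0.046 to 0.17, Nodal −0.10 to 0.17, Stat3 −0.12 to 0.016, Suz12 −0.11 to 0.19 and Trim28 −0.0697 to 0.14. The cause was not tested. Depth limits the low genes, since 3 reads are 1.41 RPM in the shallowest library, day-4 replicate 1.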
